A study of Mus musculus with 21 samples.

Results

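The 44 genes described here drive or report progress through the cell cycle and DNA replication. They were chosen as the rows of the deposited count table whose symbols are on a list of such genes. The 44 are among 34573 genes in the table, and 39 of them had enough reads to be tested. The genes fall into 6 roles: licensing and firing of replication origins (9 genes), DNA synthesis and nucleotide supply (7), G1 cyclins and their kinases (7), S to M phase cyclins with Cdk1 and the Cks proteins (7), mitosis (12) and inhibitors (2). They were followed in bone-marrow-derived macrophages (BMDMs), which are grown in culture from marrow cells, here of C57BL/6 mice aged 12 weeks. The cells grew for 6 days in medium from L929 cells that supplies the growth factor M-CSF. Cultures received dimethyl malonate (DMM, an ester that yields malonate, an inhibitor of succinate dehydrogenase), succinate (the substrate of that enzyme) or neither for 3 h, and then lipopolysaccharide (LPS, from the outer membrane of bacteria, a strong macrophage stimulus) for 4 h or 48 h, or no LPS. The doses used were not stated.

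The 20 libraries compared formed 9 groups. DMM + LPS 48 h, DMM + LPS 4 h and LPS 4 h held 2 libraries each, and succinate + LPS 48 h, succinate + LPS 4 h and LPS 48 h held 1 each. DMM alone and succinate alone held 4 libraries each, and the untreated control held 3. The columns of unstimulated libraries carry the numbers 1 to 4 (1, 3 and 4 for control) but no hours, so each unstimulated group joins cells of the 4 h and of the 48 h experiment. A further library, labelled LPS 48 h replicate 1, was kept apart from all comparisons. It held 33.8 CPM (counts scaled to library size) of Saa3, an acute-phase gene induced by LPS. The 9 libraries used as LPS-treated held 52967 to 124675 CPM and the 11 libraries without LPS 23.9 to 109 CPM. Total counts ran from 996916 to 1546867 in the LPS-treated libraries and from 662186 to 1223856 in those without LPS. Whether replicates came from separate animals or cultures is not stated, so p-values measure the spread between these libraries, which may be technical.

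Cells commit to division in G1, when D-type cyclins with Cdk4 inactivate the retinoblastoma protein and free the E2F factors that switch on replication genes. Origins are licensed by loading of the Mcm2 to Mcm7 helicase, DNA is copied in S phase, and cyclin B with Cdk1 drives mitosis, whose genes are controlled by the MuvB complexes through CHR promoter elements. M-CSF makes bone-marrow macrophages enter this cycle, and LPS is known to stop their proliferation. In bulk RNA, fewer cycling cells and less RNA of these genes in each cell cannot be told apart.

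Promoter sequence is shown for 5 genes. Of these, 3 belong to the mitotic and S to M genes, 1 is an Mcm gene and 1 is Ccnd3, which rose. The mitotic and S to M roles had the lowest median summed levels over the LPS-treated libraries (16.2 and 12.9 CPM). RefSeq promoters (assembly GRCm38.p6) were matched for 35 of the 44 genes. The 250 bases before the first listed start were searched on both strands for the CHR letters TTTGAA, the CCAAT box CCAAT and the E2F forms TTTCGCGC, TTTGGCGC and TTTCCCGC. Each sequence below is the 120 bases just before the start, 5′ to 3′ on the strand of the gene, with matches in capitals. They lie at chr11:99024190-99024309, minus strand (Top2a), chr10:69352913-69353032, minus strand (Cdk1), chr2:164769809-164769928, plus strand (Ube2c), chr1:128359706-128359825, minus strand (Mcm6) and chr17:47504931-47505050, plus strand (Ccnd3, the first of 2 listed starts).
Top2a: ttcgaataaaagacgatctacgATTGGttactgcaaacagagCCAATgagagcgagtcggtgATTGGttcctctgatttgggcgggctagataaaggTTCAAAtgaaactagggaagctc
Cdk1: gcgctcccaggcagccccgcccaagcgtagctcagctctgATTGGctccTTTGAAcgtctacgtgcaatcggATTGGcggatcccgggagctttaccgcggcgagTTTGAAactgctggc
Ube2c: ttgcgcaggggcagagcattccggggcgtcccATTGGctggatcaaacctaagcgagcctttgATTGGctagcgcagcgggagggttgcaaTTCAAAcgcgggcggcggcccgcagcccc
Mcm6: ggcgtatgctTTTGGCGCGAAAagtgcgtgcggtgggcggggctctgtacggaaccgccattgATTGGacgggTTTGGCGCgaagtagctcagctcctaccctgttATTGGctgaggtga
Ccnd3: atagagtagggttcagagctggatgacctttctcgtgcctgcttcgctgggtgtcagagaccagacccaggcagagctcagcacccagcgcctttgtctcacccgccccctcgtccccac
Matches to TTTGAA read on the other strand appear as TTCAAA and those to CCAAT as ATTGG, and at the left of the Mcm6 stretch 2 of the E2F forms overlap on opposite strands. The CHR letters were in 8 of 35 matched members (22.9%; Mki67, Top2a, Mcm2, Ccnb2, Cdk1, Cks1b, Cdc20 and Ube2c) and in 16.3% of 27025 promoters. CCAAT was in 23 of 35 (65.7%) and in 34.5% of all promoters, and an E2F form in 6 of 35 (17.1%; Mcm5, Mcm6, Mcm7, Cdc6, Cdk1 and Cdk2) and in 1.59% of all. By role, the CHR letters were in 4 of 9 matched mitotic and 3 of 6 matched S to M members. All 3 such genes shown carry them, and Mcm6 carries an E2F form. The sequences shown thus do not stand for every gene of their role. These matches are letters in a window, and no binding was measured.

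In control macrophages the members differed widely in level. Per kilobase of exon (GENCODE M21), the highest were cyclin B2 (Ccnb2) at 36.2 ± 12.7, the Cdk adaptor Cks1b at 32.8 ± 9.80 and the G1 kinase Cdk4 at 29.1 ± 1.84 CPM per kb (mean ± SD, n = 3). The SDs of Ccnb2 and Cks1b were wider than the gaps between these 3, so their order is not settled. The lowest were Ccnd2 (0.293 ± 0.216) and Ccne2 (0.306 ± 0.293 CPM per kb), a D-type and an E-type cyclin. Of the other D-type cyclins, Ccnd1 had 3.72 ± 0.890 and Ccnd3 2.45 ± 0.544 CPM per kb. The strand setting of the counting is unknown, so values of members whose exons overlap another gene may hold its reads. Exons of 18 members overlap another annotated gene, among them Ccnd3 with Bysl, Ccnd1 with LTO1, Ccna2 with Exosc9, Cdc20 with Elovl1, Cdk4 with Tspan31, Cdk2 with Pmel, Mcm7 with Cops6, Ap4m1, Mir25 and Mir93, Tk1 with Afmid, Lig1 with Zswim9, Ube2c with Tnnc2 and Cdc25b with Spef1. The others are Cdkn1a with AC167363.2, Plk1 with Gm44985, Top2a with Gm23451, Stmn1 with Gm23634, Gins2 with Gse1, Ccne2 with Ints8, and Ccnd2 with Gm43126 and 9330179D12Rik.

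Macrophage markers were present in every library, with a summed level of 78476 to 173838 CPM under LPS and 53969 to 91049.8 CPM without it. Markers of haematopoietic progenitors, another cycling cell of marrow, summed to 0 to 3.41 CPM under LPS and 0 to 12.7 CPM without, and the 5 erythroid markers found were at 0. The neutrophil genes Ly6g and Ltf were at 0, and that list summed to 7.72 to 564 CPM under LPS and 0 to 1.09 CPM without, nearly all of it S100a8. Of 5 B-cell markers, Ighm moved with LPS (0 to 2.13 CPM for the list under LPS and 55.6 to 164 CPM without). The stromal and fibroblast list summed to 2.57 to 39.9 CPM under LPS, with 39.9 and 33.4 CPM in DMM + LPS 4 h libraries, and to 1.02 to 7.81 CPM without LPS. The part of these lists in the results below was not tested.

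LPS for 4 h was followed by much lower levels of nearly the whole set. Of 39 tested members, 34 fell and 1 rose (edgeR's quasi-likelihood test, adjusted p under 0.05), where 12.5% of all 6812 tested genes fell. The filter asked for reads in any 2 libraries, so members near 0 under LPS passed it through the unstimulated libraries, and these counts describe only the 39 that passed. Summed over the 42 members other than Cdkn1a and Ccnd3, the level was 165 and 165 CPM in the LPS 4 h libraries and 1166, 1058 and 1464 CPM in control libraries, a ratio of group means of 7.45 (control over LPS 4 h). For these 2 genes all LPS 4 h values exceeded all control values, so leaving them out makes the ratio larger. With them included, the 44 members summed to 482 and 496 CPM in LPS 4 h libraries and 1126 to 1626 CPM in control libraries. The median log2 fold change of the 39 was -3.36 as fitted and -3.09 with genes at 0 counts set to their bound, against -0.07 over all tested genes.

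**Figure D1:**
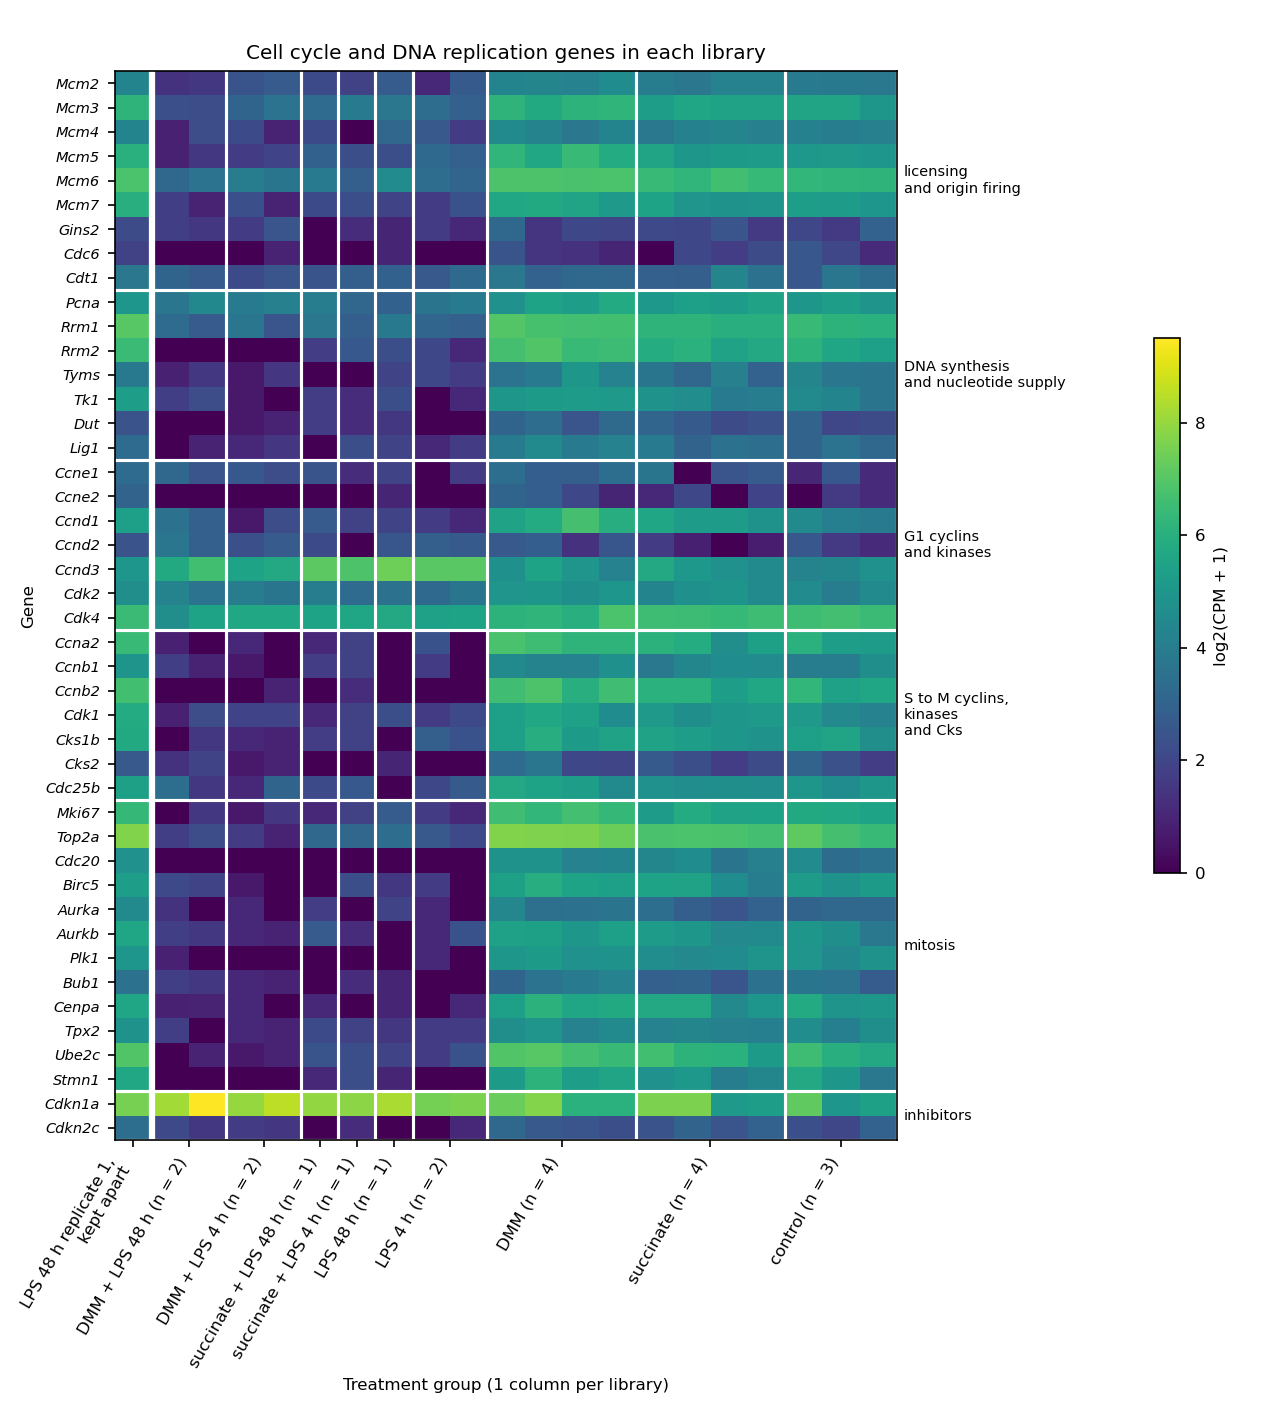
Level of each of the 44 genes (rows, by role) in each of 21 libraries (columns, by group), as log2(CPM + 1). The LPS columns are dark for the mitotic and S to M genes and bright for Ccnd3 and Cdkn1a, and the library kept apart at the far left looks like the unstimulated columns.

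Among the licensing genes, Mcm6, a subunit of the replicative helicase, had 9.60 and 7.53 CPM in LPS 4 h libraries, against 73.5, 71.6 and 76.7 CPM in control libraries. All LPS 4 h values lay far below all control values, a log2 fold change of -3.09 ± 0.31 (SE, edgeR adjusted p = 2.64e-09). The other helicase genes Mcm2, Mcm3, Mcm4, Mcm5 and Mcm7 also fell, by log2 fold changes of -2.03 (Mcm2) to -3.41 (Mcm7). The Mcm2 value was -1.31 without LPS 4 h replicate 1, where it was not called, and -3.52 without LPS 4 h replicate 2. Cdt1, which loads the helicase together with Cdc6, was the 1 of 7 tested licensing genes not called, at 5.33 and 8.61 CPM in LPS 4 h libraries and 12.2, 9.38 and 5.04 CPM in control libraries, and these ranges overlapped.

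All 7 genes of DNA synthesis and nucleotide supply fell. Rrm2, the regulated subunit of ribonucleotide reductase, had 3.20 and 1.08 CPM in LPS 4 h libraries, against 48, 39.9 and 70.6 CPM in control libraries (log2 fold change -4.56 ± 0.48, edgeR adjusted p = 1.18e-08, and -5.48 without LPS 4 h replicate 1). Its partner Rrm1, the large subunit, had 7.47 and 6.45 CPM against 70.4, 65.7 and 85.7 CPM in the same order of groups (log2 fold change -3.39 ± 0.36). Pcna, the sliding clamp of the DNA polymerases, which also serves DNA repair, had the smallest fitted fold change of the 7, with 11.7 and 14 CPM in LPS 4 h libraries and 37.8, 29.3 and 31.3 CPM in control libraries (log2 fold change -1.35 ± 0.36, edgeR adjusted p = 0.00439). Thymidine kinase (Tk1) was 33.1-fold lower (95% counting interval 5.67 to 1332), and the dUTPase gene Dut, a low gene with 13 counts over the control libraries, was at least 2.87-fold lower. Thymidylate synthase (Tyms, -2.38 ± 0.64) fell as well, and DNA ligase 1 (Lig1) was 5.51-fold lower (95% counting interval 1.68 to 28.5).

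At 4 h of LPS alone the mitotic genes had the largest ratio of summed levels of the 5 roles without the inhibitors: 12 of 12 fell, and their sum was 17.1 and 16.1 CPM in LPS 4 h libraries against 394, 354 and 562 CPM in control libraries (ratio 26.3, control over LPS 4 h). Top2a, the topoisomerase that untangles sister chromatids, had 5.33 and 3.23 CPM in LPS 4 h libraries, against 103, 85.6 and 142 CPM in control libraries (log2 fold change -4.65 ± 0.39, edgeR adjusted p = 3.39e-11). Mki67, the gene of the proliferation marker Ki-67, was 30.9-fold lower (95% counting interval 10.3 to 151). Cdc20, an activator of the anaphase-promoting complex, had 0 counts in all 9 LPS-treated libraries and 9.18, 10.6 and 23.2 CPM in control libraries, which made it at least 9.04-fold lower after 4 h of LPS (floor of 3 counts over a group). Stmn1, a microtubule destabiliser, was at least 20.7-fold lower, and the centromeric histone gene Cenpa was 73.4-fold lower (95% counting interval 12.9 to 2925). The mitotic kinases Plk1, Aurka, Aurkb and Bub1 had at most 1.07, 1.07, 4.30 and 0 CPM in the LPS 4 h libraries and at least 20.4, 7.06, 12.9 and 5.86 CPM in control libraries, in that order of genes. Birc5 (survivin) was 30.7-fold lower (95% counting interval 8.28 to 258), the spindle factor Tpx2 fell by a log2 fold change of -3.29 and the E2 enzyme Ube2c by one of -4.39.

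All 7 S to M cyclin and kinase genes fell too. Cyclin B2 (Ccnb2) had 0 counts in both LPS 4 h libraries and 41.8, 46.9 and 77.7 CPM in control libraries, and so was at least 34.8-fold lower. Cyclin A2 (Ccna2) had 4.27 and 0 CPM in LPS 4 h libraries, against 38.8, 37.5 and 65.6 CPM in control libraries (log2 fold change -4.40 ± 0.65, edgeR adjusted p = 7.52e-06). It was -3.44 without LPS 4 h replicate 2, and without replicate 1 the remaining LPS 4 h library was at 0. The kinase gene Cdk1 had 2.13 and 3.23 CPM against 21.4, 17.6 and 34.3 CPM in the same groups (log2 fold change -3.15 ± 0.55). None of the LPS 4 h values of these genes reached the control range. Ccnb1 was 17.2-fold lower (95% counting interval 4.53 to 146), the phosphatase gene Cdc25b fell by a log2 fold change of -2.71 and the Cdk adaptor Cks1b by one of -2.77, and Cks2 had 0 counts under LPS 4 h and 4.08, 2.35 and 7.06 CPM in control libraries.

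The G1 genes moved unevenly. Ccnd1 (cyclin D1) was 11-fold lower (95% counting interval 3.56 to 55.2), with 2.13 and 1.08 CPM in LPS 4 h libraries and 16.3, 14.1 and 22.2 CPM in control libraries. Ccnd3 (cyclin D3) rose, to 134 and 133 CPM in LPS 4 h libraries, against 19.4, 27 and 18.2 CPM in control libraries (log2 fold change 2.64 ± 0.34, edgeR adjusted p = 3.65e-07). The 2 cyclins thus changed in opposite directions, and the D-cyclin kinase gene Cdk4 fell with a smaller fold change, to 42.7 and 45.2 CPM against 101, 89.1 and 93.8 CPM in control (log2 fold change -1.11 ± 0.28). Cdk2, the partner of the E cyclins, had 8.53 and 11.8 CPM in LPS 4 h libraries and 15.3, 22.3 and 23.2 CPM in control libraries and was not called (edgeR adjusted p = 0.0511). Ccne1 had 0 and 2.15 CPM and 5.10, 1.17 and 1.01 CPM in these groups, too few reads to show a difference. The 7 G1 genes summed to 194 and 199 CPM in LPS 4 h libraries and 161, 156 and 163 CPM in control libraries, the 1 role of these 5 whose sum was not lower after 4 h of LPS alone. Ccnd3 made up 134 and 133 CPM of the LPS 4 h sums and 19.4, 27 and 18.2 CPM of the control sums. The rest of the G1 sum was thus lower under LPS. With DMM the G1 sum was lower under LPS, at 119.7 and 129 CPM in DMM + LPS 4 h libraries and 128 and 172 CPM in DMM + LPS 48 h libraries, against 231, 192, 235 and 223 CPM in DMM libraries.

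**Figure D2:**
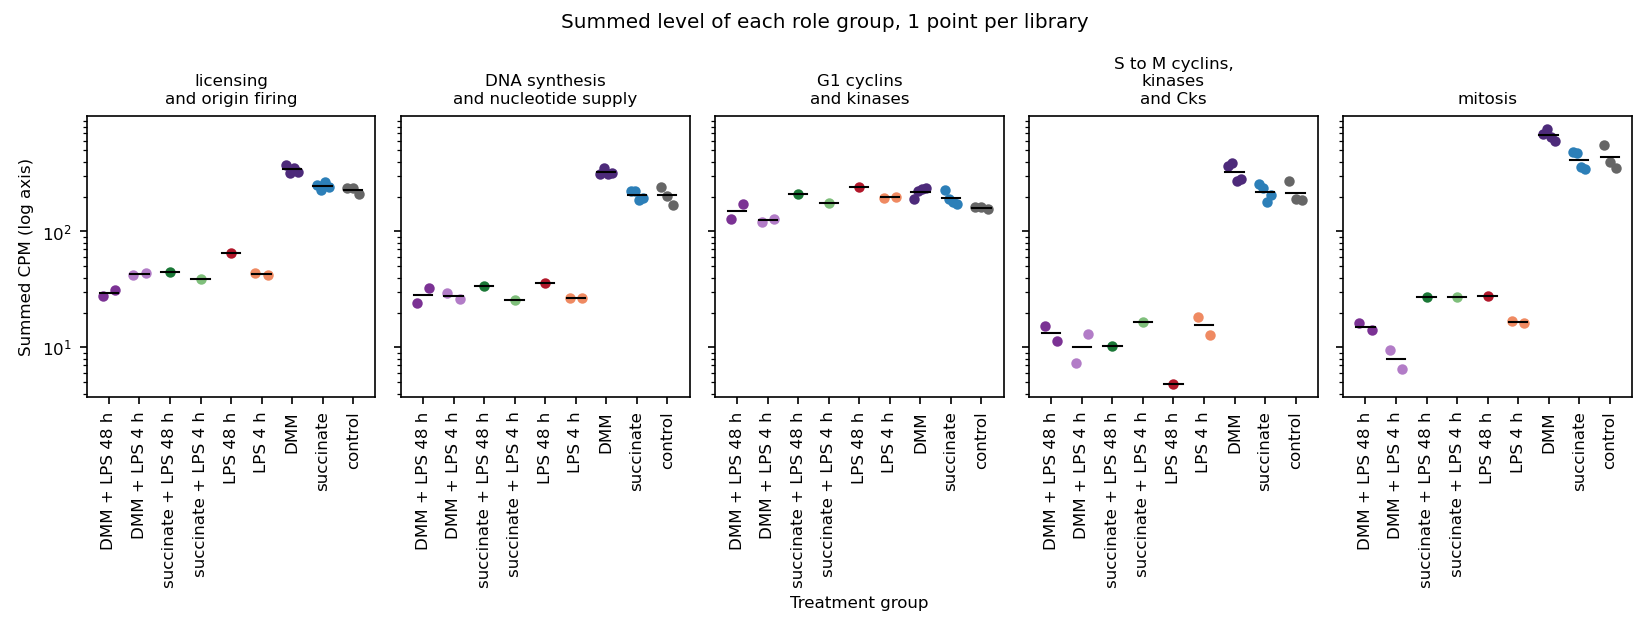
Summed CPM of the genes of 5 roles (log axis), 1 point per library and a line at the group mean, for 9 groups. In 4 of the 5 roles every LPS-treated library lies below every library without LPS, and the G1 genes overlap.

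Leaving out each library in turn kept 27 of the 35 calls at 4 h in all 20 refits. The others kept their direction and lost the call without 1 library: Mcm2 without LPS 4 h replicate 1 (edgeR adjusted p up to 0.123), Mcm4 without LPS 4 h replicate 2 (edgeR adjusted p up to 0.0786), Pcna without LPS 4 h replicate 1 (edgeR adjusted p up to 0.064), Tyms without LPS 4 h replicate 2 (edgeR adjusted p up to 0.0683), Dut without LPS 4 h replicate 1 or LPS 4 h replicate 2 (edgeR adjusted p up to 0.0707), Lig1 without LPS 4 h replicate 1 (edgeR adjusted p up to 0.108), Aurka without LPS 4 h replicate 2 (edgeR adjusted p up to 0.0888) and Cks2 without LPS 4 h replicate 1, LPS 4 h replicate 2 or control replicate 4 (edgeR adjusted p up to 0.0993). Cdk2 was called without control replicate 1 or succinate + LPS 4 h replicate 2.

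After 48 h of LPS, represented by 1 library whose spread is taken from the other groups, 27 of 39 tested members were lower than control and 1 was higher. The share of all tested genes that were lower was 8.29%. The median log2 fold change of the 39 was -2.64 as fitted (-2.61 with genes at 0 counts at their bound), against -0.09 over all genes. The summed level of the 42 members was 208 CPM in the LPS 48 h library and 1166, 1058 and 1464 CPM in control libraries. Over all 44 members, with Cdkn1a and Ccnd3, it was 691 CPM in the LPS 48 h library and 1126 to 1626 CPM in control libraries. Top2a had 9.65 CPM in the LPS 48 h library, against 103, 85.6 and 142 CPM in control libraries, and Rrm1 had 13.5 CPM against 70.4, 65.7 and 85.7 CPM in control. Of the licensing genes 4 of 7 were lower, of the DNA synthesis genes 5 of 7, and of the mitotic genes 11 of 12. The ratio of summed levels (control over LPS 48 h) was 44.8 for the S to M genes and 15.6 for the mitotic genes, and with succinate at 48 h it was 21.5 and 15.3. Mcm2 and Mcm4, subunits of the helicase, had 5.79 and 7.72 CPM in the LPS 48 h library and 13.3, 12.9 and 14.1 CPM (Mcm2) and 15.3, 16.4 and 17.1 CPM (Mcm4) in control libraries and were not called. The call was lost for Bub1 without control replicate 1 or control replicate 4 (edgeR adjusted p up to 0.0667), Tk1 without control replicate 4 (edgeR adjusted p up to 0.0591) and Tyms without DMM + LPS 48 h replicate 1, control replicate 1, control replicate 4 or succinate replicate 4 (edgeR adjusted p up to 0.122).

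The same genes were measured when LPS followed DMM or succinate, each against its own pretreated cells. With DMM, 34 of 39 members were lower after 4 h of LPS and none was called higher, where 18.3% of all genes were lower. After 48 h 34 were lower and 1 higher, where 15.4% of all genes were lower. The median log2 fold change was -3.99 at 4 h and -3.89 at 48 h, against -0.03 over all genes at 48 h. With succinate, 1 library stood for each time. Of these members 28 of 39 were lower and 1 higher at 4 h (background 7.21% lower). At 48 h 31 were lower and 1 higher (background 7.84% lower). Their medians were -3.35 (-2.68 with genes at 0 at their bound) and -3.07 (-2.42). Without 1 library, calls at 4 h with DMM were lost for Cdk2 without DMM + LPS 4 h replicate 2 (edgeR adjusted p up to 0.0596), Cks2 without DMM + LPS 4 h replicate 1 (edgeR adjusted p up to 0.109) and Dut without DMM + LPS 4 h replicate 1 (edgeR adjusted p up to 0.0631). At 48 h with DMM they were lost for Cdk2 without DMM + LPS 48 h replicate 2 (edgeR adjusted p up to 0.18), Cdk4 without DMM + LPS 48 h replicate 1 (edgeR adjusted p up to 0.0709) and Pcna without DMM + LPS 48 h replicate 1 (edgeR adjusted p up to 0.0866). With succinate they were lost for Aurka without succinate replicate 2 (edgeR adjusted p up to 0.0557) at 4 h and for Cdk4 at 48 h in 10 of 19 refits. In all 6 LPS comparisons Cdt1, Ccne1 and Cdkn1a were not called.

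Rrm2 was at 0 counts in all 4 libraries with DMM and LPS and had 85.5, 102, 90.7 and 121 CPM with DMM alone. It was at least 97.1-fold lower after 4 h and at least 78.2-fold lower after 48 h. Top2a had 2.25 and 0.928 CPM in DMM + LPS 4 h libraries, against 196, 205, 164 and 202 CPM in DMM libraries, with no overlap. Stmn1 was at least 45.5-fold lower and Plk1 at least 29.6-fold lower at 4 h, and Ccnb2 at least 73.4-fold lower at 48 h. Mcm6 had 15.2 and 12.1 CPM in DMM + LPS 4 h libraries, against 108, 113, 111 and 116 CPM in DMM libraries (log2 fold change -3.01 ± 0.27, edgeR adjusted p = 1.81e-10). With succinate, Mcm6 had 6.44 CPM in the succinate + LPS 4 h library and 98.7, 85.1, 81.3 and 75.2 CPM in succinate libraries (log2 fold change -3.69 ± 0.45, edgeR adjusted p = 1.80e-07). Over all 9 LPS-treated libraries, 33 of the 44 members lay below every library without LPS. All 33 were among the 39 tested, and 5.93% of all tested genes separated in this way. The 11 exceptions were Gins2, Cdc6, Cdt1, Ccne1, Ccne2, Ccnd2, Ccnd3, Cdk2, Cks2, Cdkn1a and Cdkn2c, of which 5 (Gins2, a subunit of the replicative helicase complex, Cdc6, Ccne2, Ccnd2 and the Cdk4 inhibitor gene Cdkn2c) had too few reads to test.

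Among the tested members, Ccnd3 and the inhibitor gene Cdkn1a (p21, which blocks cyclin-dependent kinases) stood apart from the rest. Ccnd2, with too few reads to test, also exceeded all unstimulated values of its arm with LPS 4 h, DMM + LPS 48 h and succinate + LPS 48 h. It did not do so with LPS 48 h, DMM + LPS 4 h or succinate + LPS 4 h. Ccnd3 had 167 CPM in the LPS 48 h library, against 19.4, 27 and 18.2 CPM in control libraries (log2 fold change 2.96 ± 0.39, edgeR adjusted p = 7.20e-07). With succinate it had 115 CPM at 4 h and 139 CPM at 48 h of LPS, against 27, 52.4, 21.5 and 32.9 CPM in succinate libraries (log2 fold changes 1.79 ± 0.38 and 2.07 ± 0.36). All of these LPS values exceeded all unstimulated values of their arm. With DMM it had 54.3 and 98.6 CPM after 48 h and 44.4 and 52.9 CPM after 4 h of LPS, against 30.1, 26.1, 17.6 and 44.3 CPM in DMM libraries. The 48 h difference was called (log2 fold change 1.36 ± 0.31, edgeR adjusted p = 0.00117). It was not called without DMM + LPS 48 h replicate 2 (log2 fold change 0.91, edgeR adjusted p = 0.0727). The 4 h difference was not called (log2 fold change 0.71 ± 0.32, edgeR adjusted p = 0.0883).

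Cdkn1a had 317 CPM in the LPS 48 h library, 182 and 198 CPM in LPS 4 h libraries and 30.6, 41.1 and 144 CPM in control libraries, and none of the 6 LPS comparisons called it in the 9-group model. In each of the 6, all LPS-treated values nonetheless exceeded all unstimulated values of the same arm. Its unstimulated libraries were split: those in columns numbered 2 or 4 held much more than those numbered 1 or 3, with 144 to 214 CPM against 30.6 to 66.5 CPM. The column numbers were read as 48 h (2 and 4) and 4 h (1 and 3) cultures because the control columns lack number 2 and the sample titles lack the first 48 h control. Under that reading the 5 unstimulated 48 h libraries exceeded the 6 unstimulated 4 h libraries by a log2 fold change of 1.98 ± 0.22 (edgeR adjusted p = 8.34e-08). This call held in all 19 refits without 1 library. In that comparison 5 of 39 members were higher (Cdkn1a, Ccna2, Ccnb2, Cenpa and Ube2c) and none lower, where 2.25% of all genes were higher. Ccna2 had a log2 fold change of 0.72 ± 0.18 and Ccnb2, Cenpa and Ube2c had 0.57, 0.64 and 0.63, and these 4 calls were lost in 2 to 11 of those refits. Against unstimulated cells of the 4 h set alone, Cdkn1a was higher after 4 h of LPS (log2 fold change 2.41, edgeR adjusted p = 2.62e-06). Within the inferred sets it was also higher with DMM at 4 h (log2 fold change 2.26, edgeR adjusted p = 3.88e-06) and at 48 h (log2 fold change 1.43, edgeR adjusted p = 0.000852). With succinate at 4 h it was higher too (log2 fold change 2.64). LPS alone at 48 h and succinate with LPS at 48 h were not among these calls.

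**Figure D3:**
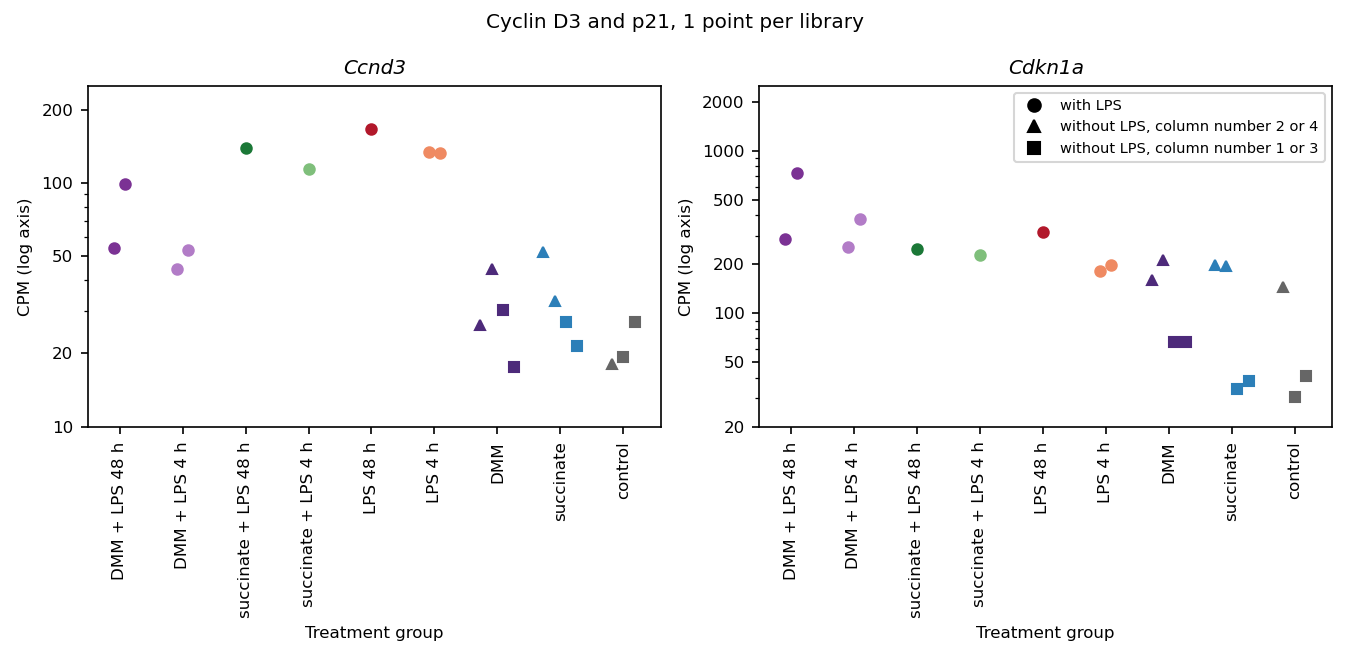
CPM (log axis) of Ccnd3 and Cdkn1a in each library by group, with triangles for unstimulated columns 2 or 4 and squares for columns 1 or 3. Ccnd3 is higher with LPS than in the unstimulated libraries of its arm, and unstimulated Cdkn1a values separate by column number. In DMM + LPS 4 h libraries the Ccnd3 ranges only just separate, and that difference was not called.

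Without LPS, cyclin D1 and Mcm5 rose with DMM. Relative to control, 2 of 39 tested members were called higher and none lower, where 0.323% of all genes were higher. The median log2 fold change was 0.60, against 0.02 over all genes. Summed over the 42 members, DMM libraries held 1785, 1924, 1765 and 2011 CPM, succinate libraries 1152, 1394, 1149 and 1328 CPM and control libraries 1166, 1058 and 1464 CPM. DMM did not overlap the other groups, and the ratio of means was 1.52 (DMM over control). The called genes were Ccnd1, the cyclin that responds to growth factors, and Mcm5, a helicase subunit. Ccnd1 had 103, 44, 59.5 and 56.5 CPM in DMM libraries, against 16.3, 14.1 and 22.2 CPM in control libraries, with no overlap (log2 fold change 1.85 ± 0.31, edgeR adjusted p = 0.00449). It was called in each of 20 refits without 1 library, but not within the inferred 48 h set (log2 fold change 1.17, edgeR adjusted p = 0.536). Mcm5 had 83.9, 74.6, 56.6 and 49.6 CPM in DMM libraries, against 34.7, 30.5 and 32.3 CPM in control libraries (log2 fold change 1.01 ± 0.23, edgeR adjusted p = 0.0362). However, 7 of those refits lost its call: those without DMM + LPS 4 h replicate 1, DMM + LPS 4 h replicate 2, DMM replicate 1, DMM replicate 2, LPS 4 h replicate 1, control replicate 1 or control replicate 3 (edgeR adjusted p up to 0.227). Rrm2 (0.92), Top2a (0.79) and Mki67 (0.83) had log2 fold changes of similar size but edgeR adjusted p of 0.0614, 0.0706 and 0.0801.

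**Figure D4:**
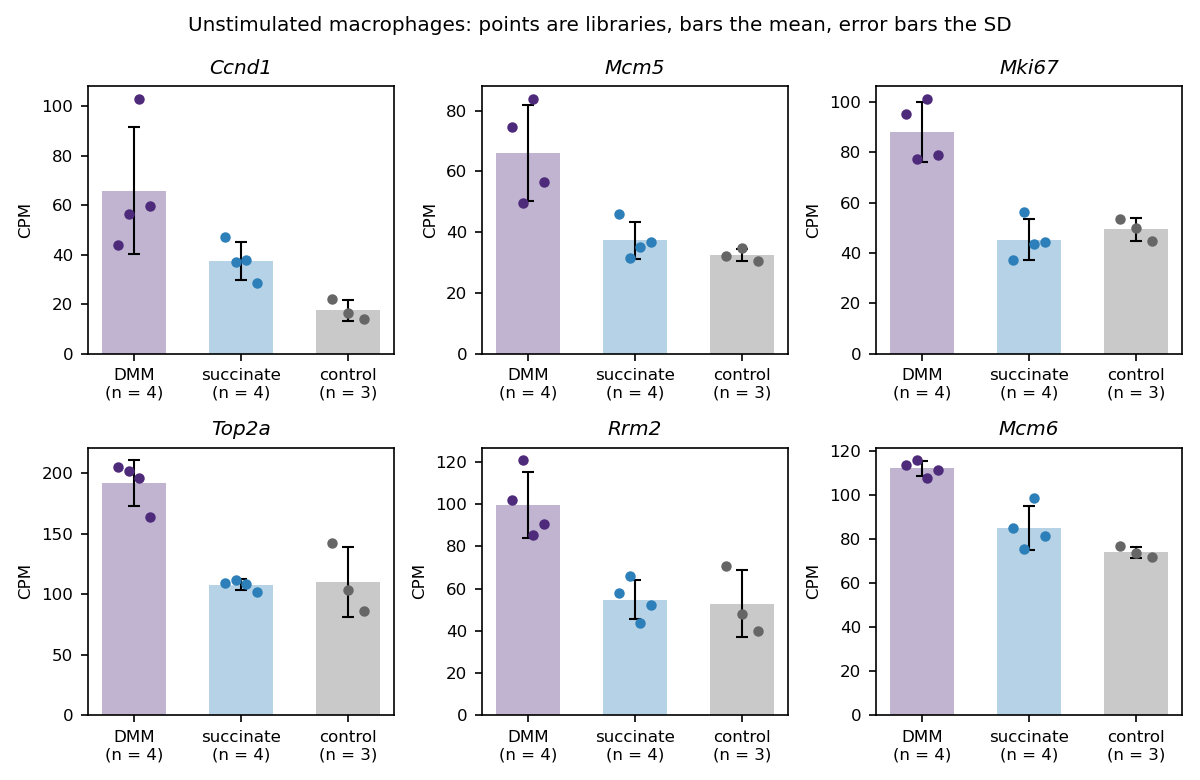
CPM of Ccnd1, Mcm5, Mki67, Top2a, Rrm2 and Mcm6 in unstimulated libraries, as points with bars at the mean and SD, for DMM (n = 4), succinate (n = 4) and control (n = 3). The DMM libraries lie highest for each gene on average.

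Succinate alone changed no member by the test, where 0% of all genes were called, the median log2 fold change was 0.03 and the summed ratio 1.02 (succinate over control). DESeq2 called 0 members. By edgeR 363 of all 6812 tested genes had an unadjusted p under 0.05, about the share of 0.05 that the threshold alone gives. A count of 0 calls does not by itself show equal levels. Ccnd1 had 37.6, 46.9, 28.5 and 36.8 CPM in succinate libraries, against 16.3, 14.1 and 22.2 CPM in control libraries. These did not overlap, but the difference was not called (log2 fold change 1.06 ± 0.32, edgeR adjusted p = 0.785). DMM exceeded succinate in 1 of 39 members, Mki67, where 0.103% of all genes were higher, with a median of 0.60 against -0.02 over all genes. Mki67 had 101, 95.4, 79 and 77.4 CPM in DMM libraries and 43.5, 37.1, 44.4 and 56.4 CPM in succinate libraries (log2 fold change 0.94 ± 0.21, edgeR adjusted p = 0.0349). The call was lost in 9 of 20 refits, those without DMM replicate 1, DMM replicate 2, DMM replicate 4, LPS 4 h replicate 1, LPS 4 h replicate 2, control replicate 1, succinate replicate 1, succinate replicate 2 or succinate replicate 3 (edgeR adjusted p up to 0.204).

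**Figure D5:**
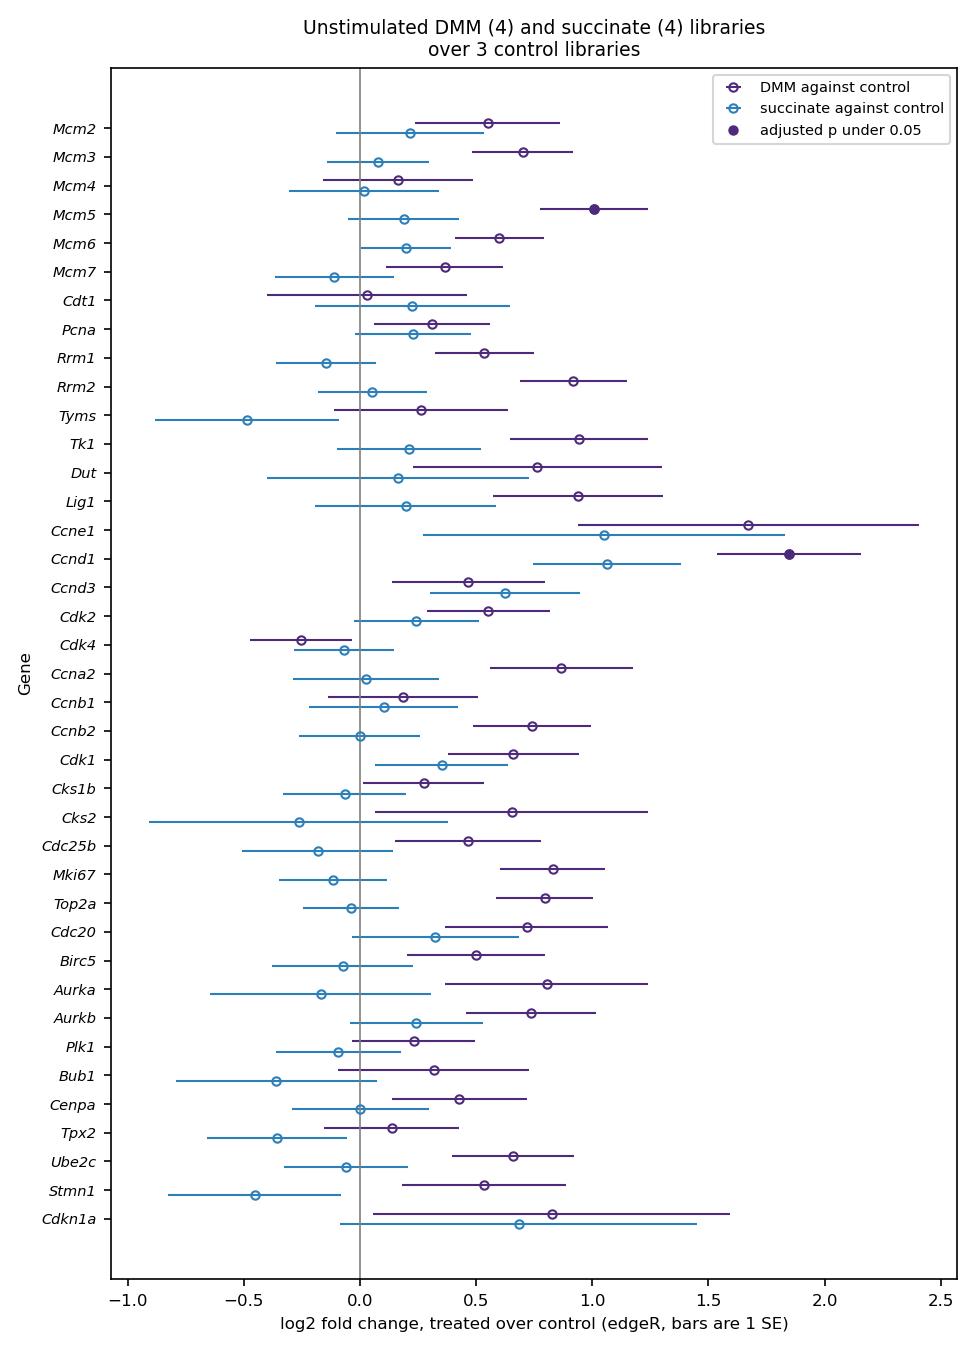
Log2 fold change ± 1 SE of the 39 tested members for DMM and for succinate, each relative to control, by gene. Filled points have adjusted p under 0.05 (Ccnd1 and Mcm5, DMM), and both comparisons share the control libraries.

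With LPS in both arms, DMM + LPS 4 h against LPS 4 h called 2 of 39 members lower and none higher, where 10.5% of all genes were lower, a larger share. Ccnd3 had 44.4 and 52.9 CPM in DMM + LPS 4 h libraries, against 134 and 133 CPM in LPS 4 h libraries (log2 fold change -1.47 ± 0.35, edgeR adjusted p = 0.00439). It lost its call without DMM + LPS 4 h replicate 1 (log2 fold change -1.33, edgeR adjusted p = 0.103). Rrm2 was at least 2.04-fold lower, at 0 against 4 counts (edgeR adjusted p = 0.047), and its call was lost without DMM + LPS 4 h replicate 1, DMM + LPS 4 h replicate 2, LPS 4 h replicate 1 or LPS 4 h replicate 2 (edgeR adjusted p up to 0.333). Tested as an interaction, the log2 fold change with 4 h of LPS was more negative or less positive with DMM than without it for 3 of 39 members, where 4.49% of all genes showed this. For Mcm5 the fall was deeper with DMM (-4.67, against -2.10 without it), and for Ccnd3 the difference was smaller (0.71 with DMM, not called, against 2.64 without it). The interaction values were Ccnd3 (-1.93 ± 0.48 on the log2 scale, edgeR adjusted p = 0.0135), Mcm5 (-2.57 ± 0.63, adjusted p = 0.0118) and Rrm2, whose fitted value rests on an arm at 0. Calls were lost for Ccnd3 without DMM + LPS 4 h replicate 1 (edgeR adjusted p up to 0.124), Mcm5 without DMM + LPS 4 h replicate 1 or LPS 4 h replicate 1 (edgeR adjusted p up to 0.132) and Rrm2 without DMM + LPS 4 h replicate 1, DMM + LPS 4 h replicate 2 or LPS 4 h replicate 1 (edgeR adjusted p up to 0.302). This comparison shares the LPS 4 h and DMM + LPS 4 h libraries with the ones above.

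EdgeR called no member in the remaining comparisons between LPS-treated groups. These were DMM + LPS 48 h against LPS 48 h (median -0.53, background 0.807% of genes called in either direction), succinate + LPS 4 h against LPS 4 h (0.24, background 1.03%), succinate + LPS 48 h against LPS 48 h (-0.11, background 0.558%), LPS 48 h against LPS 4 h (0.64, background 0.0147%) and DMM + LPS 48 h against DMM + LPS 4 h (0.08, background 1.17%). In that order DESeq2 called 0, 0, 0, 0 and 0 members, and 932, 547, 454, 316 and 827 of all genes had an unadjusted edgeR p under 0.05. With no difference at all, a share of about 0.05 of the 6812 tested genes would pass that threshold. These medians are fitted log2 fold changes, many of them of genes with few counts in both arms. Most groups here held 1 or 2 libraries, and at these counts a difference between low levels was not detectable.

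Further genes of the pathway were examined after LPS, where 12.5% of all tested genes were lower and 15.4% higher at 4 h. After 4 h of LPS, 38 of 47 further mitosis genes and 13 of 37 further replication genes were lower than control, and 0 and 1 higher. Their median log2 fold changes were -3.25 and -1.0. Smc4, a condensin subunit, changed by -4.07 ± 0.46 and Dnmt1, the maintenance DNA methyltransferase, by -2.17 ± 0.35 on the log2 scale. Of 15 regulators of G1 and of the E2F and MuvB programmes, 2 were lower (Foxm1, a mitotic activator, and Tfdp2, an E2F partner). Of 12 p53 targets, 3 were higher and 2 lower, with Mdm2, the p53 ubiquitin ligase, at 1.10 ± 0.26, and Sesn1 among those lower. The counts of lower genes among these regulators and p53 targets were near the share of 12.5% over all tested genes. Of 14 genes of CSF-1 (M-CSF) signalling, 5 were higher and 0 lower, with the transcription factor gene Ets2 at 3.77 ± 0.33 and the ERK phosphatase gene Dusp6 at 2.36 ± 0.51. With DMM, 46 of 47 further mitosis genes and 21 of 37 further replication genes were lower after 4 h of LPS than with DMM alone. In that comparison 18.3% of all tested genes were lower. DMM alone against control called none of these 5 lists' genes, with medians of 0.43 (replication) and 0.54 (mitosis).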

How the data were processed

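RNA of cultured macrophages was lysed and made into full-length cDNA by a variant of SmartSeq2, per the labels' protocols. The deposited values are raw read counts per gene, and per the submitters' processing notes TopHat2, Bowtie, HTSeq and edgeR were used. For versions, genome build, annotation and strandedness the entry is: not given in the sources used here. Reads carry no molecular identifiers, so intervals and floors cover counting error only. Counts were analysed with edgeR 4.0.16 in R 4.3.3: TMM scaling, a robust quasi-likelihood fit of 20 libraries in 9 groups (11 residual degrees of freedom) and Benjamini-Hochberg adjustment over 6812 genes, with 0.05 as threshold. A gene was tested if it reached the CPM of 10 counts in the median library, in 2 or more libraries, and 15 counts in all. Groups with 1 library take their spread from the other groups. CPM values are scaled by TMM, with a floor of 3 counts over a group and 95% exact counting intervals. The unstimulated sets were compared in a model with 12 groups. Alternatives were DESeq2 1.42.0, its size factors, no filter, all 21 libraries, an inferred replicate block, the inferred sets and leaving out each library. The scripts were tested on simulated data. The named genes are the members; members and gene lists were chosen with earlier results of these data known.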

Additional observations from a re-analysis of the deposited data

Results flagged for a closer look

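3 of 88 groups of 4 libraries held a library far from the others, where chance gives about 1 in 20. Mcm7 had 28.2, 44.7, 29.2 and 29.8 CPM in succinate libraries, Cdt1 7.92, 12.7, 7.81 and 6.96 CPM and Aurka 11.1, 20.1, 11.7 and 10.4 CPM in DMM libraries. The interaction of DMM with 4 h of LPS was called for Mcm5 (-2.57), Ccnd3 (-1.93) and Rrm2 (-5.18, an arm at 0 counts) on the log2 scale. These were 3 of 39 tested members, where 4.49% of all genes were called lower. Of these 3 calls, 0 held in every refit without 1 library. The library labelled LPS 48 h replicate 1, used in no comparison, held a summed level of 1946 CPM over the 42 members other than Cdkn1a and Ccnd3, against 1765 to 2011 CPM in DMM libraries and 1058 to 1464 CPM in control libraries. Of all pairs of libraries it and DMM replicate 2 had the closest counts, with a chi-square per degree of freedom of 1.19, and the next closest pair had 2.77.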

How the results depend on the processing

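Adding the library kept apart to the LPS 48 h group (21 libraries) cut the members called after LPS to 1 (LPS 48 h), 13 (succinate + LPS 4 h) and 11 (succinate + LPS 48 h), and gave 0 for DMM against control, 0 for DMM against succinate, 0 and 10 for DMM + LPS against LPS at 4 h and 48 h, 5 for LPS 48 h against LPS 4 h, 0 for the interaction and 1 for the unstimulated sets. With it 6 LPS 48 h log2 fold changes turned positive: Aurkb 0.1056, Ccnd1 0.3281, Cdk1 0.3238, Mcm3 0.0599, Mcm5 0.117 and Tk1 0.3053. The counts for DMM against control were 1 by DESeq2, 1 and 0 within the inferred 4 h and 48 h sets and 5 with the set as a term (chosen after seeing the data), and for DMM against succinate 2 with DESeq2 size factors, 2 by DESeq2, 5 without a filter, 0 within the 48 h set and 6 with the set as a term. DMM + LPS 4 h against LPS 4 h gave 1 without a filter and 1 by DESeq2, and the unstimulated sets 1 by DESeq2. With an inferred replicate as a block the counts were 5 for DMM against control and 9 for DMM against succinate. This block joined unstimulated columns 2 and 4 to 48 h LPS replicates 1 and 2, and columns 1 and 3 to 4 h LPS replicates 1 and 2. It thus rests on the same reading of column numbers as the inferred sets. Libraries of the same inferred replicate correlated by -0.21 to 0.29 in 29 pairs (median 0.06). Those of different inferred replicates correlated by -0.32 to 0.32 in 89 pairs (median -0.02). The main fit did not pair libraries in this way, but these overlapping ranges do not exclude sharing within an inferred replicate. Under this block Cdkn1a was called higher after LPS 4 h (2.49), LPS 48 h (1.04), DMM + LPS 4 h (2.48), DMM + LPS 48 h (1.17) and succinate + LPS 4 h (2.19; log2 fold changes). Leaving out 1 library gave 30 to 36 (LPS 4 h), 25 to 28 (LPS 48 h), 32 to 36 and 33 to 36 (DMM + LPS against DMM at 4 h and 48 h), 29 to 30 and 31 to 32 (succinate + LPS), 1 to 5 (DMM against control, highest without control replicate 4), 0 to 3 (DMM against succinate), 0 to 2 and 0 to 3 (DMM + LPS against LPS), 0 to 3 (interaction) and 1 to 7 (unstimulated sets). Of the single-gene values under alternatives, 5036 kept direction and side of the threshold, 212 lost it, 106 gained it and 6 turned. The cause of these differences was not tested. Genes with few counts under LPS limit any comparison between LPS-treated groups.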
